A study of Homo sapiens with 2 samples.

Results

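CLEC2B, CLEC2A, CLEC7A, OLR1, CD69, CLEC2D, CLEC12A, KLRF1, CLEC1A and CLEC1B are C-type lectin genes of the natural killer gene complex on the short arm of human chromosome 12. They were chosen by name, with their values in these libraries already known, and all 10 were found among the 25240 genes of the deposited tables, with 22 of the 37839 transcripts. RNA was measured by sequencing in the human luminal breast cancer line T47D. One library, shRON, came from cells transduced with a hairpin targeting RON, the receptor tyrosine kinase encoded by MST1R. It is compared with shNT, a library of cells that received a non-targeting hairpin. Both cultures were selected in 5 ug/mL puromycin, kept in 1 ug/mL and grown in high-glucose DMEM with 10% serum. Each group is 1 library, so there is no replicate error and no p-value, and differences are those of 2 libraries. The name of the control table calls its cells wild type, while its label gives a non-targeting hairpin, which was followed.

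Values are FPKM, the fragments assigned to a transcript divided by its length and by the fragment total of the library, summed over the transcripts of a gene. The libraries held about 11507600 estimated fragments in shRON and 11883300 in shNT. MST1R stood at 9.10 FPKM in shRON and 12.1 FPKM in shNT, a ratio of 0.749. All 10 luminal epithelial markers examined were above 1 FPKM in both libraries, from TFF1 (4.80 FPKM in shRON and 3.05 FPKM in shNT) to the keratin gene KRT8 (2634 FPKM in shRON and 3839 FPKM in shNT). With 1 FPKM added to each level, the estrogen receptor gene ESR1 was lower by more than 1.5-fold, and the other 9 stayed within 1.5-fold. ESR1 was at 23.7 FPKM in shRON and 36.7 FPKM in shNT. On that scale the log2 ratio was -0.61 for ESR1 and 0.52 for TFF1, whose low level the added 1 FPKM affects most.

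The natural killer gene complex encodes membrane proteins with a C-type lectin-like domain, most of which are known from blood cells. Some are receptors of natural killer or myeloid cells, and the CLEC2 proteins are ligands for receptors encoded in the same cluster: CLEC2B binds KLRF1, CLEC2A binds KLRF2 and CLEC2D binds KLRB1. Others bind sugars of fungal walls (CLEC7A), oxidised lipoprotein (OLR1) or podoplanin (CLEC1B).

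The lectin genes differed sharply among themselves. In the shRON library 5 of the 10 reached 1 FPKM (CLEC2B, CLEC7A, OLR1, CLEC2A and CD69), 4 were above 0 but under 1 FPKM, and CLEC1B was listed at 0. In the shNT library none reached 1 FPKM, the highest level was 0.673 FPKM (CLEC7A), and 6 were listed at 0. Summed over the 10 genes, the level was 70.3 FPKM in shRON and 1.57 FPKM in shNT, from about 1988 estimated fragments in shRON and 55.3 in shNT. In RNA from whole cultures, more cells that express a gene and more RNA per cell cannot be told apart. Log2 ratios set shRON over shNT after 1 FPKM was added to each level, which makes the ratio of low genes smaller than it is. On that scale 5 of the 10 were at least 2-fold higher in shRON and 0 at least 2-fold lower. Of the 12484 measured genes 3.32% passed 2-fold upward and 2.17% downward. A measured gene has 1 FPKM or more in at least 1 library. Since the genes were picked from this contrast, these counts describe the choice and support nothing. All 5 that passed the limit of 1 FPKM passed it through shRON alone. The median log2 ratio over all 10 was 0.91, against 0.04 over the measured genes. The lowest log2 ratio past 2-fold was that of CD69, at 1.498, and the highest short of it that of CLEC12A, at 0.33.

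**Figure D1:**
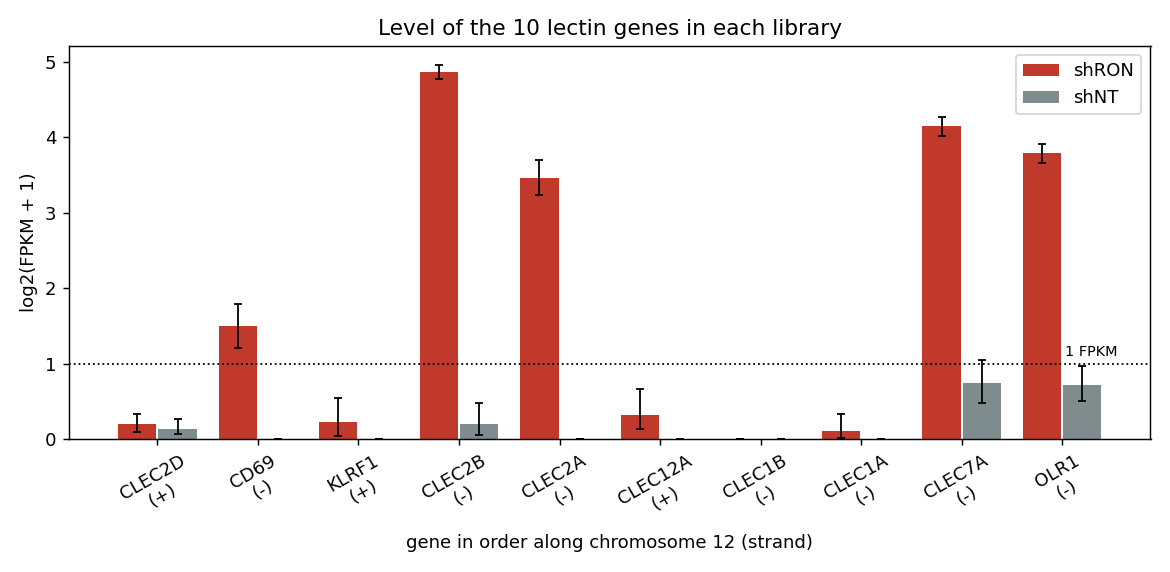
Level of each of the 10 lectin genes as log2(FPKM + 1), in order along chromosome 12 with the strand in brackets, with shRON bars left of shNT bars. Error bars are approximate 95% counting intervals and are left out where a gene is listed at 0. CLEC2B, CLEC7A, OLR1, CLEC2A and CD69 exceed the dotted line at 1 FPKM in shRON, and none does in shNT.

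The RefSeq table of promoters, in the build GRCh38.p14, matched 4 of the 10 genes: CLEC2A, CLEC2D, CLEC12A and CLEC1B. CLEC2B, CLEC7A, OLR1, CD69, KLRF1 and CLEC1A were not matched. The windows of CLEC2A and CLEC2D are shown because these related ligand genes had very different levels in shRON, 10.1 FPKM for CLEC2A and 0.146 FPKM for CLEC2D. Each runs from 250 bases before to 50 bases after the start of the gene. The CLEC2A window is chr12:9932321-9932620 on the minus strand and the CLEC2D window is chr12:9669463-9669762 on the plus strand. Capitals mark motif matches, a CCAAT box read on the opposite strand in CLEC2A and an AP-1 motif in CLEC2D.
CLEC2A: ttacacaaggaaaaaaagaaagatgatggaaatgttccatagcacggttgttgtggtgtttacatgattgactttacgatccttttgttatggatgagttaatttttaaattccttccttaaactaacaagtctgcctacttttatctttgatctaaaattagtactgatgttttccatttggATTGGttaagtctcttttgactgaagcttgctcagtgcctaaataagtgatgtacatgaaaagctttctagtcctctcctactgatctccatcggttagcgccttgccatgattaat
CLEC2D: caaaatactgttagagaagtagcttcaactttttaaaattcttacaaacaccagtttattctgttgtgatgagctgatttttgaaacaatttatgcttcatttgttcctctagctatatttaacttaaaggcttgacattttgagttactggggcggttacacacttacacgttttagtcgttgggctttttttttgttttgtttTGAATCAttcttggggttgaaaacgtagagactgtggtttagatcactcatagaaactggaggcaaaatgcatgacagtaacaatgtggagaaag

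Both windows are poor in G and C, at 35.3% in CLEC2A and 34.7% in CLEC2D, and each holds 4 CG dinucleotides. CLEC12A (34% and 0 CG) and CLEC1B (38.3% and 1 CG) are similar in this respect, while the median over 35114 promoters is 58.7% and 14 CG. Motifs were searched on both strands. The CCAAT box (CCAAT) was found in 2 of the 4 windows, CLEC2A and CLEC12A, and in 34.6% of all promoters. AP-1 (TGANTCA) was found in CLEC2D and in 7.71% of all promoters, a TATA box (TATAAA) in CLEC12A and in 11.5%, and GAS, the STAT element (TTCNNNGAA), in CLEC1B and in 7.66%. In CLEC12A the TATA box matches overlap one another and lie after the start of the gene, at positions 39 to 46. The NF-kB motif (11.3% of promoters), the interferon-stimulated response element (3.57%) and the PU.1 motif GAGGAAGT (2.59%) were in none of the 4 windows. These matches describe letters in a window and do not show a site in use.

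Among the ligand genes, CLEC2B had the highest level. CLEC2B, also called AICL, encodes the ligand of the activating receptor KLRF1. It is found at chromosome 12, 10004968 to 10022458 (hg19, minus strand), and has 1 transcript in the tables. It stood at 28.2 FPKM in shRON and 0.147 FPKM in shNT, from about 857 estimated fragments in shRON and 3.80 in shNT. Its log2 ratio of 4.67 was the third highest of all measured genes, after DDX17, whose estimate failed in shNT, and LOC100506349. The FPKM ratio was 192 (approximate 95% counting interval 74.8 to 707). This width comes from the handful of fragments in shNT. Intervals are Clopper-Pearson intervals on estimated fragments, cover counting error alone and leave out any difference between cultures.

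CLEC2A, also called KACL, encodes the ligand of KLRF2 and is known from skin. It lies 43.4 kb beyond CLEC2B, on the minus strand from 10065826 to 10084980. CLEC2A stood at 10.1 FPKM in shRON, from about 135 estimated fragments, and was listed at 0 in shNT. At the depth of shNT a count of 0 allows a level of up to 0.220 FPKM, if 3 fragments are taken as the limit. No fold is given against a library at 0. On the scale of FPKM + 1 the log2 ratio was 3.47, a value that depends on the added 1.

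CLEC2D, also called LLT1, encodes the ligand of the inhibitory receptor KLRB1. It was near the limit of detection in both libraries, at 0.146 FPKM in shRON and 0.104 FPKM in shNT (about 10.8 estimated fragments in shRON and 8.52 in shNT). The ratio of FPKM was 1.40, with a counting interval of 0.529 to 3.83, so a difference was not detectable at this depth. CLEC2D also shares the most sequence with other genes among the 10, which makes its level less certain. Of the 50-base stretches of its annotated transcripts, 12.7% occur in other genes as well, mainly in NPM1 and its pseudogene NPM1P7. NPM1P7 lies within CLEC2D. The shares in the other 9 genes were at most 0.522%, and 0 in CLEC2B, CLEC2A, CD69, KLRF1, CLEC12A and CLEC1B.

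The receptors of these ligands were at or near 0. KLRF1, the receptor of CLEC2B on natural killer cells, ends 7.36 kb before CLEC2B and was at 0.175 FPKM in shRON, from about 3.37 estimated fragments, and listed at 0 in shNT. KLRF2, the receptor of CLEC2A, was at 0.202 FPKM in shRON (about 2.29 estimated fragments) and listed at 0 in shNT. KLRB1, the receptor of CLEC2D, was listed at 0 in both. For KLRF1 a count of 0 in shNT allows up to 0.153 FPKM, and the interval of its level in shRON ran from 0.0321 to 0.455 FPKM, so a difference was not detectable at this depth.

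CD69, which encodes an early activation antigen of lymphocytes that holds the receptor S1PR1 inside the cell, was the lowest of the 5 genes past 1 FPKM. It lies on the minus strand from 9905082 to 9913497. CD69 stood at 1.83 FPKM in shRON, from about 43.2 estimated fragments, and was listed at 0 in shNT, where a count of 0 allows up to 0.125 FPKM. Its log2 ratio was 1.498. The coding transcript took 81.5% of the gene's level in shRON and a noncoding transcript 18.5%. S1PR1 was listed at 0 in both libraries.

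Of the receptors of myeloid cells, CLEC7A was high in shRON and CLEC12A was not. CLEC7A encodes dectin-1, the receptor for fungal beta-glucan, and lies on the minus strand from 10269376 to 10282868. It stood at 16.7 FPKM in shRON and 0.673 FPKM in shNT, from about 479 estimated fragments in shRON and 18.0 in shNT. The log2 ratio was 3.41 and the ratio of FPKM 24.9, with a counting interval of 15.6 to 42.3. That interval treats all fragments of the gene alike. In shNT 1 short transcript gave 0.251 of the 0.673 FPKM from about 1.96 estimated fragments, so the counting error is wider than this. CLEC12A, an inhibitory receptor gene on the plus strand from 10124008 to 10138194, was at 0.254 FPKM in shRON (about 5.62 estimated fragments) and listed at 0 in shNT. A count of 0 allows it up to 0.133 FPKM in shNT, above the lower bound of its interval in shRON, 0.0996 FPKM.

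OLR1, which encodes LOX-1, the receptor for oxidised low-density lipoprotein, stood at 12.8 FPKM in shRON and 0.649 FPKM in shNT, from about 451 estimated fragments in shRON and 24.95 in shNT. It lies on the minus strand from 10310899 to 10324790. The log2 ratio was 3.07 and the ratio of FPKM 19.8, with a counting interval of 13.2 to 30.9. One of its 3 transcripts took nearly all of the level in both libraries.

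CLEC1A and CLEC1B, which lie between CLEC12A and CLEC7A, were not seen at a level above the limit. CLEC1A, known from endothelial and dendritic cells, was at 0.0774 FPKM in shRON, from about 2.13 estimated fragments, and listed at 0 in shNT. CLEC1B, the platelet receptor for podoplanin, was listed at 0 in both libraries, as was its ligand gene PDPN.

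In shRON the order of levels was CLEC2B, CLEC7A, OLR1, CLEC2A, CD69, CLEC12A, KLRF1, CLEC2D, CLEC1A and CLEC1B. The counting interval of CLEC2B, 26.4 to 30.2 FPKM, lay above that of CLEC7A, 15.3 to 18.3 FPKM, which lay above that of OLR1, 11.7 to 14.1 FPKM. The interval of CLEC2A, 8.46 to 11.9 FPKM, overlapped that of OLR1. CD69, at 1.32 to 2.45 FPKM, lay apart from all others, and the intervals of CLEC12A, KLRF1, CLEC2D and CLEC1A overlapped one another. In shNT the levels of CLEC7A and OLR1 had overlapping intervals, 0.399 to 1.064 FPKM and 0.421 to 0.960 FPKM. That of CLEC2B, 0.0421 to 0.396 FPKM, lay below both, but only just, and it rests on 3.80 estimated fragments rounded to 4. Of the CLEC7A level in shNT, 0.251 FPKM came from 1 short transcript with about 1.96 estimated fragments. In shRON the same transcript gave 3.72 of the 16.7 FPKM of CLEC7A, from about 26.8 of 479 estimated fragments. The intervals of CLEC7A treat all its fragments alike, so its place above OLR1 in shRON is uncertain. CLEC2B therefore stood above CLEC7A and OLR1 in shRON, while its lower place in shNT is uncertain.

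CLEC7A is known to be spliced into forms with and without a stalk between the membrane and the lectin domain, and 6 of its transcripts are listed. NM_022570.4 had the highest level, 8.60 FPKM in shRON and 0.422 FPKM in shNT, which is 51.4% of the gene in shRON and 62.7% in shNT. NM_197954.2, a short transcript of 509 bases, was at 3.72 FPKM in shRON and 0.251 FPKM in shNT, or 22.2% of the gene in shRON and 37.3% in shNT. NM_197949.2, which is 119 bases shorter than NM_022570.4, held 3.28 FPKM in shRON, and NM_197947.2, which is 138 bases longer than NM_022570.4, held 1.12 FPKM. Both were under 0.0001 FPKM in shNT. The shNT shares rest on about 18.0 estimated fragments for the whole gene, so a difference in splicing was not detectable at this depth. How reads are divided among overlapping transcripts is itself an estimate.

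**Figure D2:**
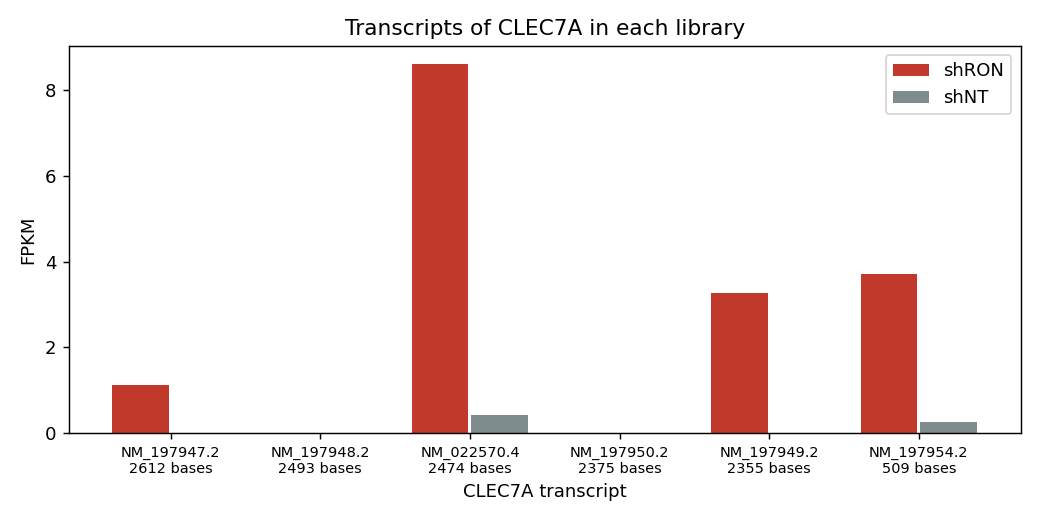
FPKM of the 6 listed CLEC7A transcripts, ordered from 2612 to 509 bases, with shRON bars left of shNT bars. NM_022570.4 is the highest in both libraries, at 8.60 FPKM in shRON and 0.422 FPKM in shNT.

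Along the chromosome the genes past 2-fold were not one unbroken block. The 10 genes span 502 kb. CD69, CLEC2B and CLEC2A, with KLRF1 among them, occupy the side nearer the chromosome end. That side also holds CLEC2D and the lectin genes CLECL1 and KLRF2, and these and KLRF1 were under 1 FPKM in both libraries. CLEC7A and OLR1, separated by 28.0 kb, lie on the side nearer the centromere. The 184 kb between CLEC2A and CLEC7A hold CLEC12A, CLEC1B and CLEC1A, all under 1 FPKM in both libraries, and the lectin genes CLEC12B and CLEC9A, listed at 0 in both. All 5 genes past 2-fold lie on the minus strand, as do 7 of the 10. An unnamed noncoding gene on the plus strand overlaps CLEC2B in the GENCODE annotation, and TMEM52B, also on the plus strand, overlaps OLR1 there. TMEM52B is listed in the tables under its older name C12orf59, with a shorter extent that starts 6.77 kb beyond OLR1. No source used here says whether the libraries marked strand, so reads of such partners cannot be told apart.

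Measured neighbours that are not lectin genes had smaller log2 ratios than the 5 genes past 2-fold. Within 1 Mb of either side of the cluster 6 of them were measured, with log2 ratios between -0.46 and 0.99. GABARAPL1, an autophagy gene and the next measured gene after OLR1, stood at 14.2 FPKM in shRON and 6.66 FPKM in shNT, a log2 ratio of 0.99. Only the added 1 FPKM keeps GABARAPL1 short of 2-fold. The other 5 were between -0.46 and 0.28. M6PR, the mannose 6-phosphate receptor gene, was at 19.5 FPKM in shRON and 16.8 FPKM in shNT (0.20), and the log2 ratios of RIMKLB and LOC100506112 were 0.01 and 0.28. On the other side MAGOHB was at 3.07 FPKM in shRON and 4.603 FPKM in shNT (-0.46) and CSDA at 14.8 FPKM in shRON and 16.6 FPKM in shNT (-0.15). Some transcripts beside the lectin genes stayed under 1 FPKM and were higher in shRON. LOC100506159, next to CLEC2A, was at 0.836 FPKM in shRON and listed at 0 in shNT (0.88). C12orf59 (TMEM52B), next to OLR1, was at 0.981 FPKM in shRON and 0.236 FPKM in shNT (0.68). Both were chosen after their values were seen.

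The 63 measured genes within 5 Mb of CLEC2B, without the lectin genes described here, had a median log2 ratio of 0.20 and quartiles of 0.01 and 0.36. Of them 4 were at least 2-fold higher, LOC100507644 (1.26), C1R (1.31), ETV6 (1.14) and EMP1 (1.32), and 0 at least 2-fold lower, beside 3.32% and 2.17% of all measured genes. A second median took all other measured genes within 5 Mb of each gene, lectin genes included, and was 0.22 over 67 genes for CLEC2B. With this second median subtracted, CLEC2B was at 4.45, CLEC2A at 3.24, CLEC7A at 3.18, OLR1 at 2.85 and CD69 at 1.28.

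**Figure D3:**
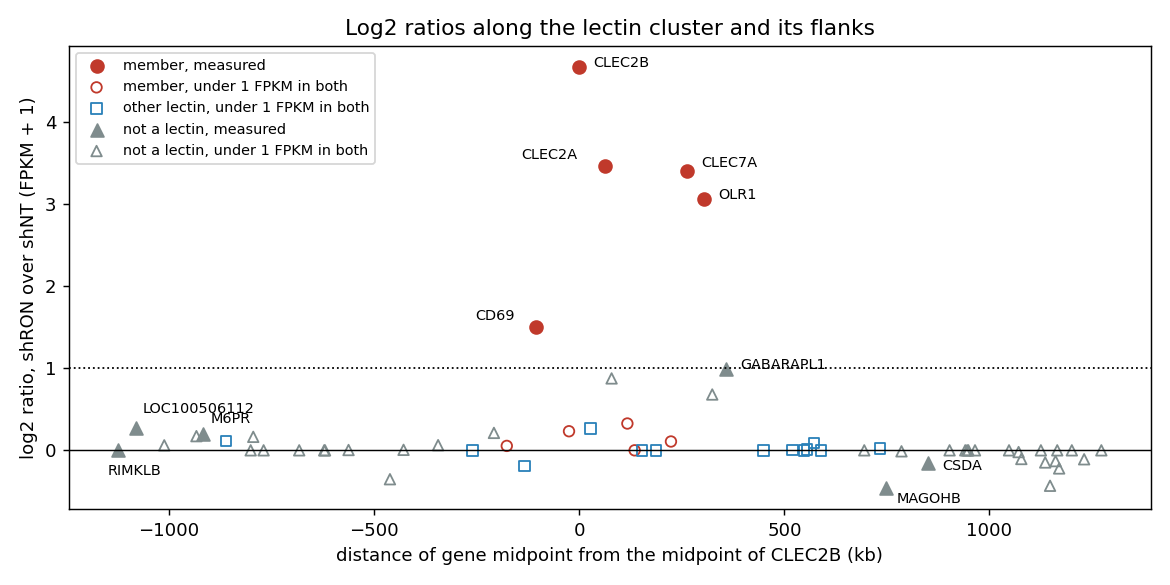
Log2 ratio of each gene (shRON over shNT, FPKM + 1) against the distance of its midpoint from that of CLEC2B in kb. Circles are the 10 lectin genes, squares other lectin genes and triangles genes of other kinds, filled where 1 FPKM was reached. CLEC2B, CLEC2A, CLEC7A, OLR1 and CD69 stand above the dotted line at 2-fold, and GABARAPL1, at 0.99, lies just under it.

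The other lectin genes of the same complex stayed under 1 FPKM in both libraries. The window of 1 Mb around the cluster holds 13 further lectin genes, among them the NKG2 family genes KLRC1 to KLRC4 and their partner gene KLRD1. Their highest level was 0.285 FPKM in shRON and 0.264 FPKM in shNT, both of KLRA1, a pseudogene, and 6 were listed at 0 in both libraries. Of 34 C-type lectin-like genes on other chromosomes or far from the cluster, 4 were measured, and 0 were 1.5-fold higher or lower, where 9.95% of measured genes were 1.5-fold higher and 8.84% lower. CD302 was at 5.47 FPKM in shRON and 5.37 FPKM in shNT, and CLEC16A at 4.88 FPKM in shRON and 5.58 FPKM in shNT. CLEC11A was at 4.03 FPKM in shRON and 2.47 FPKM in shNT, and PLA2R1 at 2.28 FPKM in shRON and 2.27 FPKM in shNT. CLEC11A stayed within 1.5-fold only because 1 FPKM was added. These 4 genes are too few to set against the shares of all measured genes. The median log2 ratio of the 4 was 0.01.

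Among 24 signalling genes downstream of CLEC7A and CLEC1B, 17 were measured, 1 was 1.5-fold higher and 1 lower, with a median log2 ratio of 0.05. Of all measured genes 9.95% were 1.5-fold higher and 8.84% lower, with a median of 0.04. SYK, the kinase that binds both receptors, was at 1.11 FPKM in shRON and 2.40 FPKM in shNT (-0.69), and SRC was at 18.2 FPKM in shRON and 11.1 FPKM in shNT (0.66). The adaptor gene CARD9 was at 2.06 FPKM in shRON and 1.47 FPKM in shNT, and IL10, a cytokine that CLEC7A can induce, was listed at 0 in both.

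Of 20 genes of LOX-1 shedding and of other scavenger receptors, 14 were measured, 3 were 1.5-fold higher and 2 lower, beside 9.95% and 8.84% of all measured genes, with a median log2 ratio of -0.16. The higher ones were CD68 (5.84 FPKM in shRON and 1.37 FPKM in shNT, 1.53), the fatty acid receptor gene CD36 (4.07 FPKM in shRON and 1.66 FPKM in shNT, 0.93) and the sheddase gene ADAM17 (11.96 FPKM in shRON and 7.11 FPKM in shNT, 0.68). The lower ones included SCARB1, which encodes the receptor of high-density lipoprotein (31.6 FPKM in shRON and 50.3 FPKM in shNT, -0.65). Of 15 receptors and ligands of the lectins, 7 were measured. CLEC2B and CLEC2A, which belong to this list too, were the 2 that were 1.5-fold higher, and MYL9, which encodes a myosin light chain known as a ligand of CD69, was lower (34.3 FPKM in shRON and 52.6 FPKM in shNT, -0.60). The median log2 ratio of the 7 was 0.01.

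Blood and vessel cells carry many of these lectins, and most of the markers listed for them were at or near 0 in both libraries. This list leaves out CD68 and CD36, counted above with the scavenger receptors. CD68 (5.84 FPKM in shRON and 1.37 FPKM in shNT) and CD36 (4.07 FPKM in shRON and 1.66 FPKM in shNT) passed 1 FPKM in both libraries. Of 41 markers of natural killer and T cells, myeloid cells, B cells, platelets and endothelium, 0 reached 1 FPKM in shRON and 1 in shNT, the platelet gene GP1BA (0.746 FPKM in shRON and 1.30 FPKM in shNT). Of them 22 were listed at 0 in both libraries, among them PTPRC, CD3E, NKG7, LYZ, TYROBP, PF4 and PECAM1. The summed level of the 41 was 3.22 FPKM in shRON and 3.16 FPKM in shNT. By group the sums were 0.602 FPKM in shRON and 0.400 FPKM in shNT for natural killer and T cells, and 1.08 FPKM in shRON and 0.441 FPKM in shNT for myeloid cells. They were 0.165 FPKM in shRON and 0.386 FPKM in shNT for B cells, 1.36 FPKM in shRON and 1.92 FPKM in shNT for platelets, and 0.0141 FPKM in shRON and 0.0137 FPKM in shNT for endothelium. CD14, a monocyte gene, had the highest level of the myeloid markers in shRON, at 0.879 FPKM, against 0.115 FPKM in shNT, and its part in the lectin values was not tested.

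A level of 10 FPKM or more in shRON from under 1 FPKM in shNT was uncommon. Of 11892 genes under 1 FPKM in shNT, 525 reached 1 FPKM in shRON and 9 reached 10 FPKM. CLEC2B, CLEC7A, OLR1 and CLEC2A were 4 of these 9, which describes the choice of genes from this contrast and supports nothing. The others were MAGEA6, MAGEA3, CXCR4, LOC100506349 and DDX17, whose transcripts in shNT carry a failed status, so that its 0 there is no measurement. By distance of log2(FPKM + 1) over the 2 libraries, the 5 genes nearest to CLEC2B were LOC100506349 (0.25), the cancer-testis antigen gene MAGEA6 (0.66), the chemokine receptor gene CXCR4 (0.85), the chemokine gene CXCL10 (0.98) and the noncoding gene DSCR8 (1.29). LOC100506349 was at 31.4 FPKM in shRON and listed at 0 in shNT, and CXCL10 was at 29.7 FPKM in shRON and 1.26 FPKM in shNT. With 2 libraries this likeness says only that the levels are close.

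**Figure D4:**
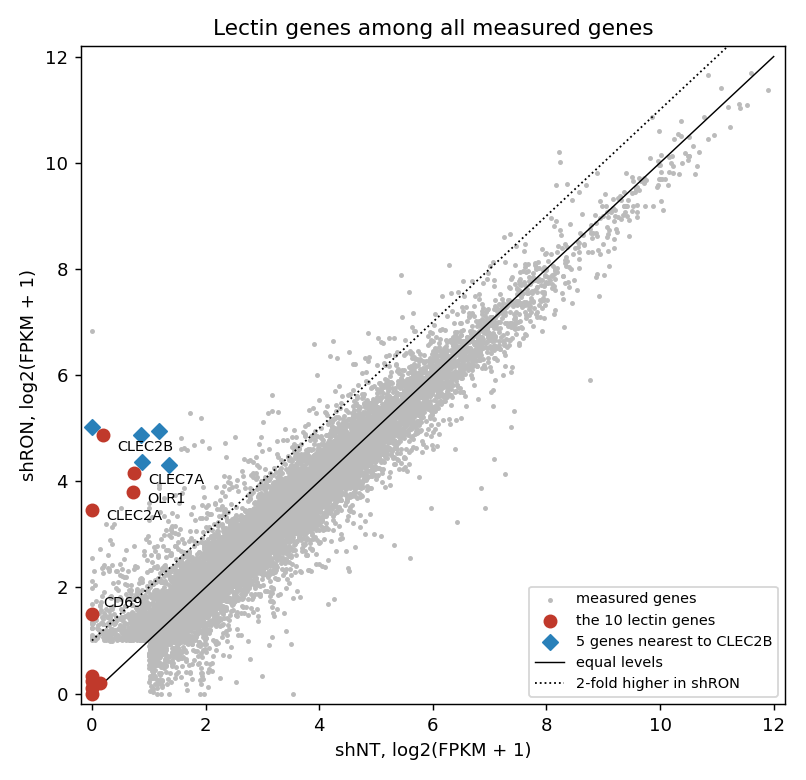
Level of each measured gene in shRON against shNT, both as log2(FPKM + 1). Red circles are the 10 lectin genes, including those under 1 FPKM, and blue diamonds the 5 genes nearest to CLEC2B. CLEC2B, CLEC7A, OLR1, CLEC2A and CD69 lie above the dotted line at 2-fold, and the rest sit near the origin.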

How the data were processed

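RNA was measured in 1 shRON and 1 shNT library of T47D, grouped by the treatment label. The deposited FPKM values and coverage (a signal, the mean read depth over a transcript) come in the transcript layout of Cufflinks, per the file headers, and per the submitters' processing notes the build was hg19 and DESeq was used, with no role given. The aligner was not given in the sources used here. No scaling between libraries is stated.

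FPKM was summed per gene with pandas 2.3.3 on Python 3.11.15. Genes had to reach 1 FPKM in shRON or shNT, small RNA genes were left out, and log2 ratios used a pseudocount of 1 FPKM. Fragments were estimated as coverage times length over the bases of 1 read pair, the median of low products in long genes with a single transcript: 241 bases in shRON (quartiles 223 and 262) and 244 in shNT (226 and 263). Only 38.4% of low values in shRON and 39.8% in shNT lay within 0.1 of a whole pair, so these are not whole reads and count models were not used. Intervals are 95% Clopper-Pearson intervals for ratios and exact Poisson intervals for levels, on rounded estimated fragments (SciPy 1.17.1). All 22 transcripts of the lectin genes had the status OK in both libraries.

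Strands and overlaps came from GENCODE v44lift37 on GRCh37, the assembly of hg19, and starts in the files were counted from 0 and are given from 1. Promoters came from RefSeq. The calling of 2-fold differences was tested on simulated data. Changes there were larger than 2-fold and were set in genes at 5 FPKM or more in both libraries. All 10 lectin genes were under 1 FPKM in shNT, so that test does not cover them. The lectin genes, the gene lists and the rules were chosen with earlier results of these data known. All 10 lectin genes, measured genes of the window, list genes past 1.5-fold and the 5 nearest genes to CLEC2B are named. Genes named beyond this were chosen after their values were seen. A list gene past 1.5-fold is counted but its values are not reported here.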

Additional observations from a re-analysis of the deposited data

How the results depend on the processing

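The count of 5 genes at least 2-fold higher was 5 with a pseudocount of 0.1 FPKM, no filter, scaling by the median ratio, transcripts with the status OK alone, the highest transcript of each gene or regional medians subtracted, and 4 with a pseudocount of 5 FPKM (CD69 short of 2-fold) or a filter of 5 FPKM. All 30 log2 ratios of CLEC2B, CLEC2A, CLEC7A, OLR1 and CD69 under the 6 alternatives that apply to single genes were above 0. A pseudocount cannot change a sign and the genes were picked from this contrast, so these signs support nothing. The median over all 10, 0.91, was 2.97 with a pseudocount of 0.1 FPKM and 0.26 with 5 FPKM. Over the 5 measured genes it was 3.41, and 4.44 and 1.66 with these pseudocounts. With no filter all 10 genes enter and it was 0.91. The share of all genes 2-fold higher was 5.58% with a pseudocount of 0.1 FPKM and 1.16% with 5 FPKM, from 696 and 145 genes. Depth limits CLEC2D, KLRF1, CLEC12A and CLEC1A, which rest on a few fragments. No paired analysis was possible because each group has 1 library.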
